A study of Mus musculus with 12 samples.

Results

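Ribosome-bound RNA was compared with total RNA in control MIN6 cells. MIN6 is a line derived from a mouse insulinoma and is used as a model of pancreatic beta cells. The comparison took 6 of the 12 libraries of the series: 3 of IP RNA and 3 of total RNA, chosen by their labels. Cells at passage 29, grown in high-glucose medium, received an siRNA called NT by AMAXA nucleofection and were harvested after 72 h. Both groups therefore carry the same siRNA and the same transfection, and no untransfected cells are compared here. In the other 6 libraries the siRNA was directed at Pdx1, a homeodomain transcription factor of beta cells, and they entered the fit as separate groups. RNA came from translating ribosome affinity purification (TRAP), in which ribosomes are captured by way of a tagged subunit, and the RNAs on them are eluted (IP). The labels name neither the tagged protein nor how it was expressed, and no mock purification is analysed here. Which fraction a library holds is given by its title alone. The labels do not say whether the replicates were separate cultures, so every p-value below reflects library-to-library spread, possibly technical only.

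A translating mRNA carries a row of ribosomes along its coding sequence, and the number it carries depends on how often ribosomes start on it and how fast they move. Purification through a tagged ribosome keeps RNAs bound to at least 1 tagged ribosome, while total RNA also holds nuclear RNA, mRNA in storage and non-coding RNA. In beta cells much of translation serves the secretory pathway, where signal sequences at the start of prohormones bring ribosomes to the endoplasmic reticulum (ER).

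The 6 libraries held 32272906 to 41337132 counts over 12639 genes, each represented by its transcript with the most counts. Of these, 12054 had protein-coding and 585 non-coding accessions. The deposited transcripts appear limited by their level in total RNA, since each reaches at least 26 counts in some NT total library, whereas the lowest such maximum in NT IP was 1. RNAs scarce in total RNA but present in the IP are therefore not analysed here, so the upper end of the ratio is incomplete. Pearson's r of log levels between replicates was 0.990 to 0.998, and counts of every replicate pair differed by more than sampling noise. All 10 beta-cell markers were measured, and 0 of 14 listed acinar, ductal, immune, endothelial and stromal markers. NT IP replicate 3 stood apart at genes with a near-identical copy elsewhere in the genome. Of 422 such genes, 59 were more than 2-fold lower there than the mean of the other IP libraries and 2 more than 2-fold higher (14.5%), against 0.329% of 11546 genes with little matched sequence. Cytosolic ribosomal proteins, proteasome subunits and glycolytic genes are given with and without this library below, and other lists only in part.

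IP and total RNA differed at most genes. By edgeR's quasi-likelihood test with Benjamini-Hochberg adjustment over all genes, 8809 of 12639 (69.7%) had an adjusted p under 0.05, 4272 higher in IP (33.8%) and 4537 lower (35.9%). The median log2 ratio of IP over total was -0.02. A difference of at least 2-fold was reached by 1188 genes (9.4%), 264 of them upward (2.09%) and 924 downward (7.31%). The 3 IP libraries lay outside the range of the 3 total libraries at 9801 genes (77.5%), all above at 4719 (37.3%) and all below at 5082 (40.2%). Libraries were scaled to one another, so a ratio is relative to the average gene and says nothing of the amount of RNA recovered.

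The ratio fell along transcript length. The 12520 genes with a known length were divided into 10 classes of equal size. In the shortest class (59 to 1194 nt) the median log2 ratio was 0.69, and 950 of 1252 genes were higher in IP while 82 were lower. In the longest class (6435 to 123179 nt) the median was -0.71, with 68 higher and 1016 lower. The classes between them were ordered without exception, with medians of 0.49, 0.27, 0.16, 0.01, -0.07, -0.19, -0.29 and -0.46. Higher and lower genes were nearly equal in number in the class with a median of 2753 nt, at 364 and 356. Of the 924 genes at least 2-fold lower in IP, 372 belonged to the longest class. Of the 264 at least 2-fold higher, 175 belonged to the shortest. The plot of ratio against length shows this slope together with the spread of single genes around it.

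**Figure D1:**
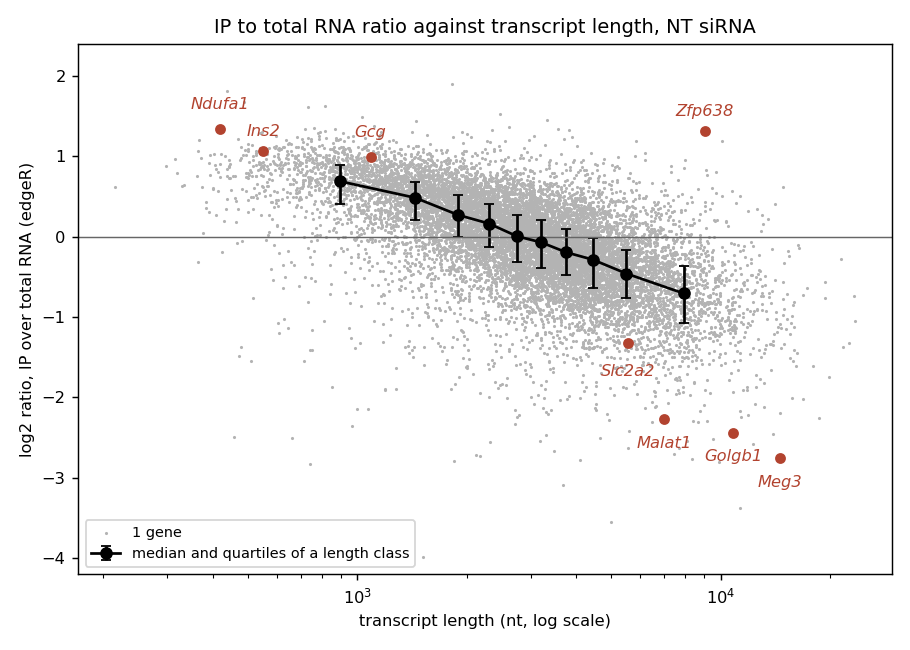
Log2 ratio of IP over total RNA (y axis, edgeR) against transcript length in nt (x axis, log scale) for NT siRNA. Grey points are genes (54 beyond the plotted lengths of 200 to 25000 nt and 119 without a length are not drawn), black points are medians of length classes with bars to the quartiles, and red points are named genes. Medians descend from 0.69 to -0.71, and Zfp638 lies far above and Malat1 and Meg3 far below the genes of their length.

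The shift was present in every library. Genes of the shortest class took 32.4%, 30.8% and 34.2% of counts in the IP libraries and 21.5%, 19.2% and 20.7% in total RNA. Both insulin genes belong to this class, and without them the difference between the group means fell from 12.01 to 7.46 percentage points. Genes of the longest class took 4.25%, 4.40% and 4.11% in IP and 7.19%, 7.94% and 7.54% in total RNA. The count-weighted mean transcript length was 2478 ± 57.3 nt in IP (SD, n = 3) and 3105 ± 63.4 nt in total RNA (SD, n = 3). For each of these 3 measures no IP library overlapped a total library, which gives an exact two-sided permutation p of 0.1, the smallest that 3 against 3 allow (0.108 adjusted over 14 measures). The same slope was seen with Pdx1 siRNA, where the outer classes had medians of 0.86 and -0.81, and the difference between the siRNAs in these medians was not tested. The ratio differed between the siRNAs at 29 genes (0.229%) by edgeR's test of the difference, with 2157 at an unadjusted p under 0.05.

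**Figure D2:**
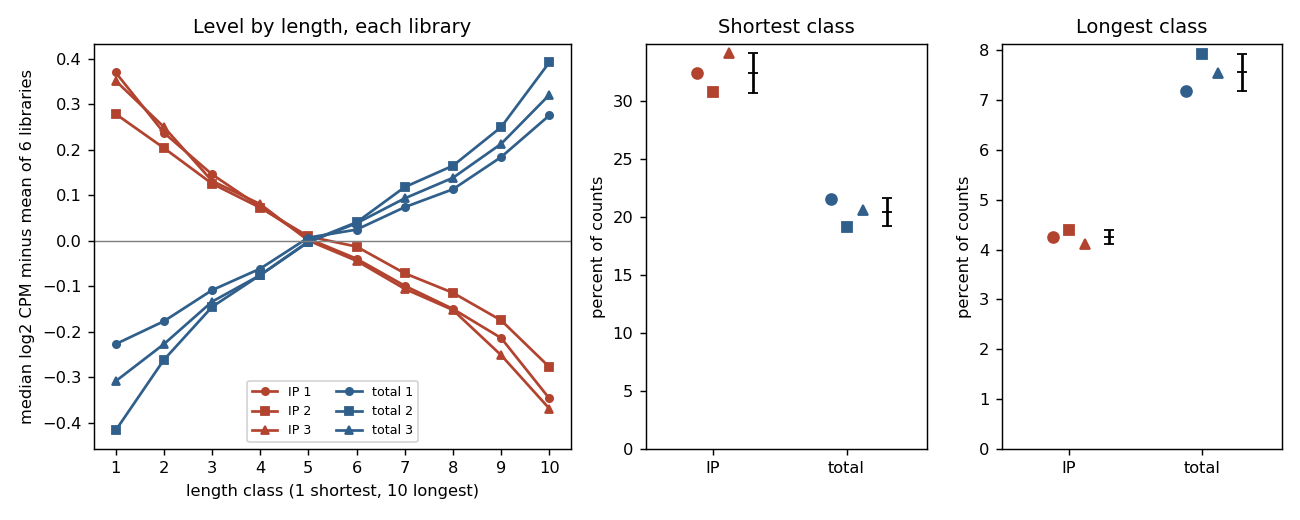
Left, the median over genes of each length class of the log2 CPM minus the mean of the 6 libraries, by library (circles, squares and triangles are replicates 1, 2 and 3). Middle and right, the percent of counts in the shortest and the longest class, with bars for mean ± SD of 3 libraries. The IP libraries lie above total RNA in the short classes and below it in the long ones, and cross at class 5.

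Coding length followed the ratio more closely than the untranslated ends. Over 12026 coding genes, Spearman's correlation with the ratio was -0.67 for coding length, -0.66 for transcript length, -0.33 for the 3' UTR and -0.11 for the 5' UTR. These are correlations across genes that share the same 6 libraries, and the lengths are themselves correlated. Among 5000 coding transcripts of 2000 to 4000 nt, this correlation was -0.45 for coding length, -0.30 for transcript length and 0.16 for the 3' UTR. These were split into 4 classes of 1250 by coding length, and the shortest (median 745.5 nt) had a median log2 ratio of 0.25, with 651 of 1250 genes higher in IP and 137 lower. The longest (median 2383.5 nt) had a median of -0.29, with 146 higher and 695 lower. Classes of rising 3' UTR length had medians of -0.13, 0.01, 0.02 and 0.09. At a limited transcript length a longer 3' UTR leaves less coding sequence, so these medians are not independent of those by coding length. Within this window the ratio was thus lower where the coding sequence was longer, although whole transcripts were longer too, with medians of 2728.5 and 3275.5 nt in the outer classes. For the level in total RNA the correlation was 0.06 over all coding genes and 0.16 in this window, and for GC content it was 0.23 and 0.12.

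To separate genes that follow the length trend from those that do not, a second fit removed from each library its smooth trend of log2 CPM on log2 length, called the length offset below. It left 7216 of 12520 genes past the test (57.6%), 3722 higher in IP (29.7%) and 3494 lower (27.9%), and a difference of -0.07 between the outer classes. The offset treats whole-transcript length only. Over coding genes, Spearman's correlation with the ratio after it was -0.04 for transcript length, -0.30 for coding length and 0.17 for the 3' UTR. Values with the length offset are therefore not freed of coding length. Gene groups below are given from the first fit, followed by their counts with the length offset. Their counts are to be read beside the shares over all genes, 33.8% higher and 35.9% lower, or 29.7% and 27.9% with the offset.

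Start codon surroundings are shown for genes from both ends of the ratio, since these bases are read when a ribosome chooses where to begin. Each run is 10 bases before the start codon, the ATG in capitals and 9 bases after it, from GENCODE M21 transcripts on GRCm38. A context is called strong here when it has a purine 3 bases before the ATG and a G directly after it, and weak when it has neither.
Ins2 (strong, log2 ratio 1.07): ttgtttcaacATGgccctgtgg
Gcg (intermediate, 0.99): agaaaaaaaaATGaagaccatt
Ppib (weak, 1.11): ctgccggtggATGctgcgcctc
Ndufa1 (intermediate, 1.34): cggtgcggagATGtggttcgag
Mafa (strong, -0.90): gccccgggcgATGgccgcggag
Glp1r (strong, -1.33): gcgcccagccATGgccagcacc
Slc2a2 (intermediate, -1.33): cacacacacaATGtcagaagac
Kmt2d (strong, -1.75): ggagagagggATGgacagccag
Strong contexts stand here on high-ratio and low-ratio genes alike, and weak contexts occur on both sides too, as in Klf6 (-0.80) and Srsf11 (-0.70). Over all coding genes the median log2 ratio was 0.00 for 5513 with a strong context and -0.03 for 734 with a weak one. When transcripts were split into 5 length classes, the medians for strong and weak contexts were 0.62 and 0.63 in the shortest and -0.59 and -0.56 in the longest. The number of AUG codons upstream of the start was as weakly related to the ratio, with a Spearman's correlation of -0.08 over all coding genes and 0.07 within 2000 to 4000 nt.

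The hormone mRNAs were higher in IP. Insulin transcripts (Ins1 plus Ins2) were 15.4%, 15.3% and 18.02% of IP counts and 10.2%, 9.33% and 9.65% of total RNA counts. Levels of single genes are CPM, counts scaled to library size. Ins2 (chromosome 7, 142678656-142679726, GRCm38) stood at 121326, 120862 and 149872 CPM in IP and 65653, 60423 and 61231 CPM in total RNA. All IP libraries exceeded all total libraries, with replicate 3 the highest, and the log2 ratio was 1.07 ± 0.14 (SE, adjusted p = 5.7e-06). Gcg, which encodes proglucagon and has a signal sequence like the insulins, was at 1492, 1532 and 1535 CPM in IP and 749.9, 785 and 753 CPM in total RNA. Its log2 ratio was 0.99 ± 0.09 (adjusted p = 2.2e-07), and the groups did not overlap. Iapp, which encodes the amyloid peptide co-secreted with insulin, had a ratio of 0.94, and Ins1 of 0.91. These are short transcripts, of 552 to 1088 nt by the GENCODE models used. The 1062 nt model of Ins1 is longer than its RefSeq gene (chromosome 19, 52264297-52265015), so its offset value rests on that length. With the length offset Ins1 and Gcg remained past the test, at 0.34 and 0.43, while Ins2 at 0.29 (adjusted p = 0.13) and Iapp at 0.29 (adjusted p = 0.052) did not. Of 6 measured markers of other islet endocrine cells, Gcg among them, 4 were higher and 1, the transcription factor Irx2, was lower (median 0.57), and with the offset 3 and 1. Ppy, which encodes pancreatic polypeptide, was scarce but higher in each IP library, at 1.59, 1.87 and 2.02 CPM in IP and 0.686, 0.401 and 0.629 CPM in total RNA, a ratio of 1.68.

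The whole list of 23 measured hormones, granins and granule enzymes, which includes the hormones above, had 12 members higher in IP and 7 lower. Its median log2 ratio was 0.33 beside -0.02 over all genes, and 0.18 when Ins1 and Ins2 were left out before scaling. Those lower were Pcsk1 and Pcsk2, the proteases that cut prohormones, the granins Chga, Chgb, Scg2 and Vgf, and the granule membrane protein Ptprn2 (named after their values were seen). Chga stood at 8975, 9515 and 9439 CPM in IP and 12296, 13186 and 11497 CPM in total RNA, a ratio of -0.40 ± 0.14 (adjusted p = 0.015), and its call was lost without NT IP replicate 1, NT total replicate 1 or NT total replicate 2 (adjusted p = 0.052 to 0.089). Pcsk2, with a 4723 nt transcript, was at -0.29 (adjusted p = 0.041), a call that was lost when any of the 6 libraries was left out (adjusted p = 0.074 to 0.22), and at 0.05 (adjusted p = 0.73) with the length offset. The number lower depended on single libraries, and was 3 without NT IP replicate 1, NT total replicate 1 or NT total replicate 2, and 4 without NT IP replicate 3, without NT total replicate 3 or with RLE scaling. The offset brought the list to 5 higher and 6 lower with a median of 0.01, beside 29.7% and 27.9% over all genes.

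More genes of the ER machinery were higher in IP than lower. Of 41 genes of ER translocation, chaperones and folding, 22 were higher and 7 lower (median 0.25), and with the length offset 20 and 7 (median 0.22). Ssr4, a subunit of the translocon-associated protein complex, stood at 1772, 1530 and 1870 CPM in IP and 847, 694 and 807 CPM in total RNA, with no overlap and a ratio of 1.14 ± 0.11 (adjusted p = 5.4e-07). Ppib, a cyclophilin of the ER, reached 1.11, but 57.6% of its exonic bases overlap Snx22 on the opposite strand. Dnajb11, a cochaperone of BiP, was at 0.85. Hspa5, which encodes BiP itself, stood at 2321, 2355 and 2110 CPM in IP and 2798, 3001 and 2806 CPM in total RNA, lower in every IP library (-0.34 ± 0.10, adjusted p = 0.0077, or 0.059 without NT total replicate 2). The 32 lysosomal and V-ATPase genes gave 18 higher and 3 lower (median 0.27). With the offset 10 were higher, near the share of 29.7% over all genes, and 4 were lower, beside 27.9%. Ctsz, a lysosomal protease, was at 1.00 and Npc2, a cholesterol carrier of the lysosome, at 0.84.

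By sequence, genes with an N-terminal hydrophobic stretch had higher medians than genes with no hydrophobic stretch in each length class. A hydrophobic stretch near the start of the protein and no other such segment is common in secreted and lumenal proteins. The rule does not single these out, and Ndufa1 of complex I, for example, also met it. The class held 838 coding genes. Of these 379 were higher in IP and 185 lower (median 0.19). Of 7659 genes with no hydrophobic stretch, 2699 were higher and 2737 lower (median 0.00). From the shortest to the longest of 5 length classes the medians were 0.75, 0.29, 0.08, -0.09 and -0.37 with the N-terminal stretch, and 0.58, 0.20, -0.04, -0.28 and -0.57 without any. Genes with 2 or more hydrophobic segments and no N-terminal stretch had medians of 0.65, 0.28, 0.07, -0.15 and -0.66. These were also above genes with none except in the longest class. The 1306 genes with 1 segment and no N-terminal stretch had 0.61, 0.20, -0.11, -0.30 and -0.65, below genes with none from the middle class on. The stretch was called from residue hydropathy alone and no test was made between the classes.

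Ion channels and receptors of the beta cell were mostly lower in IP. Of 33 ion channels and membrane receptors 22 were lower and 1, Trpm5, was higher (median -0.52). Slc2a2, the glucose transporter GLUT2, stood at 13.99, 16.9 and 14.2 CPM in IP and 35.5, 42.3 and 35.3 CPM in total RNA. The groups did not overlap and the ratio was -1.33 ± 0.10 (adjusted p = 2.6e-08). Glp1r, the receptor for the incretin GLP-1, was at 29.4, 33.3 and 33.1 CPM in IP and 73.6, 86.5 and 80.7 CPM in total RNA, also -1.33 (adjusted p = 6.7e-07). Scn3a, a sodium channel subunit, was at -1.37 and Itpr2, a calcium release channel of the ER, at -1.48. The median transcript of the list was 5569 nt, and with the offset 15 were lower and 6 higher (median -0.20).

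Components of the ribosome and of the respiratory chain, mostly short mRNAs, were at the top of the ratio. Of 80 nuclear-encoded respiratory chain genes 75 were higher in IP and 1, Ndufs1, was lower (median 0.95, median length 731.5 nt). Ndufa1, a small subunit of complex I, stood at 342, 288 and 383 CPM in IP and 151, 115 and 135 CPM in total RNA. The ratio was 1.34 ± 0.13 (adjusted p = 4.9e-07). Sdhb, the iron-sulfur subunit of complex II, was at 1.05. Of 74 mitochondrial ribosomal proteins 69 were higher and 0 lower (median 0.71), among them Mrpl28 at 1.08 and Mrpl12 at 1.09. With the length offset 48 of 80 respiratory genes were higher and 3 were lower (median 0.29), and 50 of 74 mitochondrial ribosomal genes were higher and 3 lower (median 0.26). The 35 mitochondrial carriers, of the Slc25 family, gave 11 higher and 10 lower, near the shares over all genes of 33.8% and 35.9%, with a median of 0.03 whose sign depended on the setting. With the offset they gave 11 and 12.

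Cytosolic ribosomal proteins were also higher, but by an amount that depended on 1 library. Of 78 genes 59 were higher and 0 lower (median 0.75), and 53 of the 78 have a near-identical copy covering at least 50% of the transcript. Without NT IP replicate 3, 76 were higher and the median was 0.98. With that replicate as the only IP library, 40 were higher, 18 lower and the median was 0.43. With the length offset 26 were higher and 6 lower (median 0.16). Among the 25 genes without a copy, fitted after all genes with copies were left out, 21 were higher and 0 lower (median 0.85). Rpl8, which has no such copy, stood at 886, 806 and 959 CPM in IP and 435, 404 and 404 CPM in total RNA, a ratio of 1.09 ± 0.09 (adjusted p = 1.3e-07), and the groups did not overlap. Rpl10a, the ribosomal protein commonly tagged in this method, stood at 10.1, 9.70 and 11.1 CPM in IP and 8.56, 7.63 and 8.801 CPM in total RNA, a ratio of 0.31 (adjusted p = 0.0055) that became -0.35 with the length offset, and 78.8% of its transcript is matched elsewhere. The part of the copies in these values was not tested.

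Other genes of protein synthesis and turnover did not move as 1 group. Of 69 genes with Eif or Eef names, initiation and elongation factors together with their kinases and methyltransferases, 39 were higher and 10 lower (median 0.29), and 35 and 9 with the offset. Eif3i, a subunit of the initiation factor eIF3, was at 0.85. Aminoacyl-tRNA synthetases, which charge tRNAs, gave 5 higher and 9 lower of 19 (median -0.18), beside 33.8% and 35.9% over all genes. With the offset the synthetases gave 1 and 7, and in the first fit Eprs was at -0.80 and Iars at -0.75. The number lower was 4 without NT total replicate 2, and the number higher was 3 without NT IP replicate 1, NT IP replicate 3 or NT total replicate 3. Proteasome subunits gave 28 higher and 3 lower of 37 (median 0.44), reduced to 14 and 2 by the offset, and Psmb1 was at 1.06. Without NT IP replicate 3 the proteasome counts were 32 and 2 (median 0.52). Of 17 glycolytic genes 4 were higher and 13 did not pass (2 higher and 2 lower with the offset), with a median of 0.14. The glycolytic median was 0.11 without NT IP replicate 3 and -0.07 with it as the only IP library. Pgk1, among those 4, read 88.8 CPM in NT IP replicate 3 beside 16.6 and 17.5 in the others, and 68.8% of its transcript is matched by copies.

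A list of mRNAs with special control of translation, most by upstream reading frames, had mainly members higher in IP. Of 19 measured, 14 were higher, 4 did not pass and 1, Bace1, was lower (median 0.46, median length 2812 nt), and with the offset 16 were higher and 0 lower (median 0.41). Atf4, a transcription factor of the integrated stress response, stood at 275, 251 and 288 CPM in IP and 196, 157 and 188 CPM in total RNA, a ratio of 0.59 ± 0.10 (adjusted p = 9.2e-05) with no overlap. Ddit3, which encodes the stress factor CHOP, was at 41.5, 35.8 and 39.4 CPM in IP and 26.3, 21.9 and 23.1 CPM in total RNA, a ratio of 0.71. Its value with the offset was 0.08 (adjusted p = 0.32). Atf5, a relative of Atf4, was at 0.55, a value from a transcript with a non-coding accession, and Oaz2, an antizyme whose translation uses a frameshift rather than an upstream frame, at 0.79.

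Transcription factors of the beta cell were mostly lower in IP. Of 20 measured, 13 were lower and 2, Insm1 and Myt1, were higher (median -0.55), and the length offset left 13 lower and 3 higher (median -0.46). Mafa, an activator of the insulin genes, stood at 36.8, 44.9 and 44.1 CPM in IP and 64.9, 92.7 and 76.6 CPM in total RNA, a ratio of -0.90 ± 0.13 (adjusted p = 2.7e-05), and the IP libraries were all below total RNA. Mlxipl, the glucose-responsive factor ChREBP, was at 59.5 to 63.2 CPM in IP and 147 to 157 CPM in total RNA, a ratio of -1.31 ± 0.07 (adjusted p = 1.7e-09). Rfx6 was at -1.25 and Rfx3 at -1.15. Pdx1 stood at 104, 115 and 111 CPM in IP and 118, 123 and 109.6 CPM in total RNA, where the groups overlapped and the ratio was -0.09 ± 0.10 (adjusted p = 0.44), or -0.26 (adjusted p = 0.030) with the offset.

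Immediate early, zinc finger and cell cycle genes were likewise more often lower than higher. Of 22 immediate early genes, which respond to stimulation within minutes to hours, 14 were lower and 4 higher (median -0.30), and 13 and 3 with the offset. Without NT IP replicate 1 the number lower was 9. Npas4, a transcription factor of this class induced by calcium influx, stood at 1.32, 1.46 and 1.40 CPM in IP and 5.23, 5.88 and 5.97 CPM in total RNA, the lowest ratio of the list at -2.03. Of 319 measured genes named Zfp, which encode zinc finger proteins, 186 were lower and 30 higher (median -0.38), and 139 and 36 of 318 with the offset. Of 37 genes of mitosis and the cell cycle 19 were lower and 6 higher (median -0.20), with Cenpf, a kinetochore protein, at -1.66 and the spindle motor Kif11 at -1.08. With the offset 18 were lower and 5 higher. Of 31 splicing factors of the Srsf and hnRNP families 7 were higher and 11 lower (3 higher without NT IP replicate 1), or 7 and 13 with the offset, and the shares over all genes were 33.8% and 35.9%. Of 6 histone genes, mostly replacement and linker types with polyadenylated mRNAs, 4 were higher and 0 lower (median 0.56), H1f2 at 0.83 and H3f3b at 0.74, and the counts were the same with the offset.

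**Figure D3:**
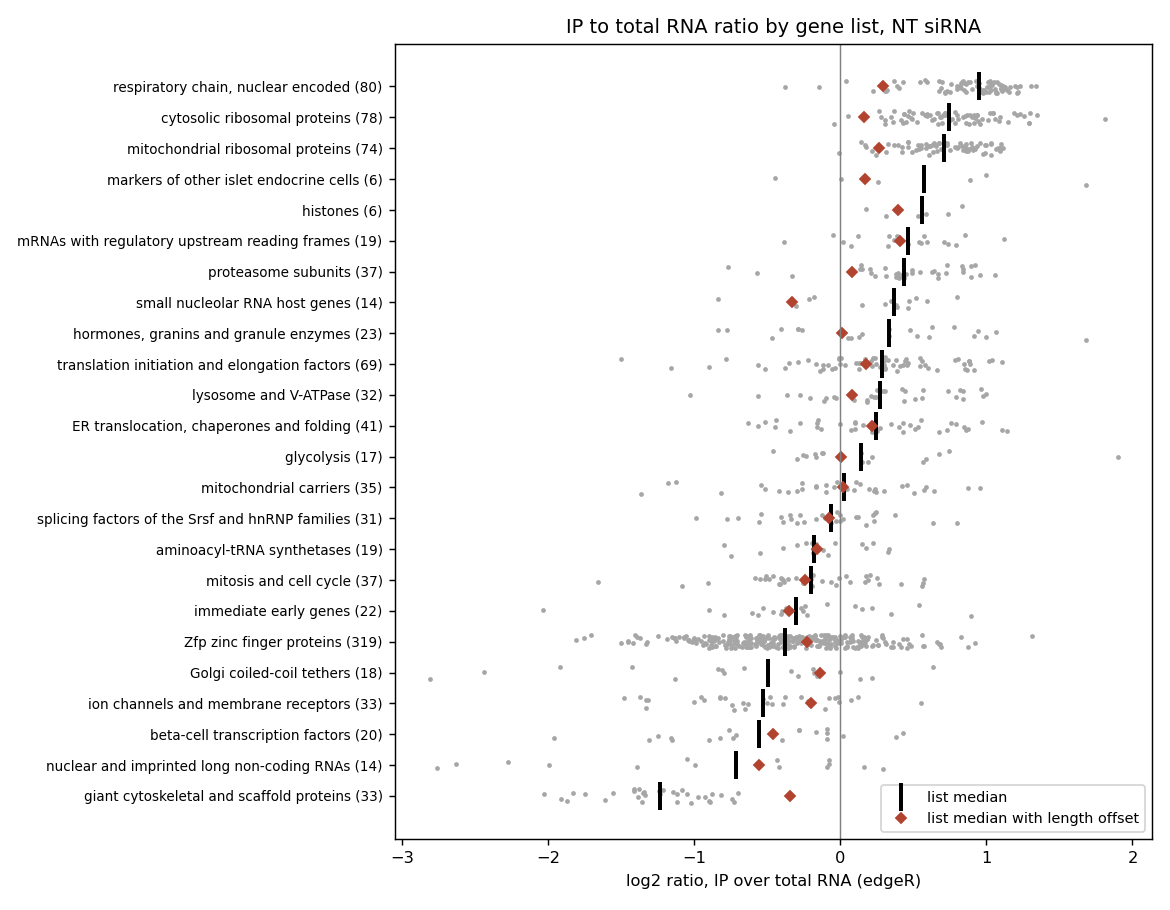
Log2 ratio of IP over total RNA (x axis, edgeR) for members of each gene list (grey points, number measured in brackets), with the list median as a black bar and the median with length offset as a red diamond. Respiratory chain and ribosomal protein lists lie highest (0.95 and 0.75) and giant scaffold proteins lowest (-1.23), and the offset moves the small nucleolar RNA host genes from 0.37 to -0.33.

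The longest mRNAs were depleted from IP. All 33 measured giant cytoskeletal and scaffold proteins were lower, by a median of -1.23 at a median length of 14627 nt, and they took 0.118% to 0.128% of counts in IP and 0.321% to 0.397% in total RNA. Kmt2d, a histone methyltransferase with a 19823 nt transcript, stood at 17.01, 19.5 and 16.7 CPM in IP and 57.00, 65.6 and 55.6 CPM in total RNA, a ratio of -1.75 ± 0.10 (adjusted p = 2.4e-09). Akap9, a scaffold of the centrosome and Golgi, was at -1.83. The offset reduced the list to 17 lower and 2 higher of 31 (median -0.34). Of 18 Golgi coiled-coil tethers, long rod proteins that catch vesicles, 12 were lower and 2 higher (median -0.50), and with the offset 9 and 3 (median -0.14). Golgb1, which encodes giantin, stood at 33.5, 31.1 and 34.5 CPM in IP and 166, 195 and 176 CPM in total RNA, a ratio of -2.44 ± 0.14 (adjusted p = 3.9e-09). With the offset Gcc2, another tether, was at -1.36 and Golgb1 also remained past the test, both below genes of their length.

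Most long non-coding RNAs listed as nuclear or imprinted were lower in IP. Of the 14 measured, 9 were lower in IP and 1, Norad, was higher (median -0.71), although copies match over 50% of Norad. Where in the cell each RNA lies was not measured, so a place on the list does not make Norad a nuclear RNA. With the length offset 4 were higher and 6 lower of 12 (median -0.56). As a group they took 0.0669% to 0.0688% of IP counts and 0.186% to 0.212% of total RNA counts. Malat1, an RNA of nuclear speckles, stood at 53.6, 79.3 and 62.1 CPM in IP and 363, 289.7 and 291 CPM in total RNA, a ratio of -2.27 ± 0.15 (adjusted p = 8.9e-09). Neat1, the scaffold of paraspeckles, was at 184, 188 and 199 CPM in IP and 818, 678 and 781 CPM in total RNA, a ratio of -1.996. Meg3, an imprinted RNA, was at 8.29, 7.97 and 10.2 CPM in IP and 57.7, 58.6 and 62.8 CPM in total RNA, a ratio of -2.76, and Firre, a nuclear RNA of the X chromosome, at -2.63. Each was lower in every IP library, and each was nonetheless counted there.

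Non-coding accessions as a whole gave 145 higher and 200 lower of 585 (median -0.10). Over all genes the shares were 33.8% higher and 35.9% lower, so the share lower was near that of all genes. With the offset non-coding accessions gave 63 higher and 236 lower of 494 (median -0.34), beside 29.7% and 27.9% over all genes. Non-coding accessions were 1.02%, 1.01% and 0.918% of IP counts and 1.46%, 1.45% and 1.48% of total RNA counts. The class rests on the accession of the kept transcript, and holds Atf5, a protein-coding gene. In the shortest of 5 length classes the median of non-coding accessions was 0.10, against 0.60 for coding ones, and in the middle class -0.49 against -0.02. In the 2 longest classes, with 38 and 24 non-coding accessions, the medians were -0.22 and -0.59 against -0.24 and -0.57. The 14 measured genes listed as small nucleolar RNA hosts, whose spliced exons mostly do not encode protein, gave 7 higher and 1 lower (median 0.37). Rpph1, counted among them, is the RNA of RNase P. The number higher was 3 without NT IP replicate 3 and 4 without NT total replicate 2. With the length offset 0 were higher and 8 of 13 lower (median -0.33), so their direction depends on how length is treated.

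**Figure D4:**
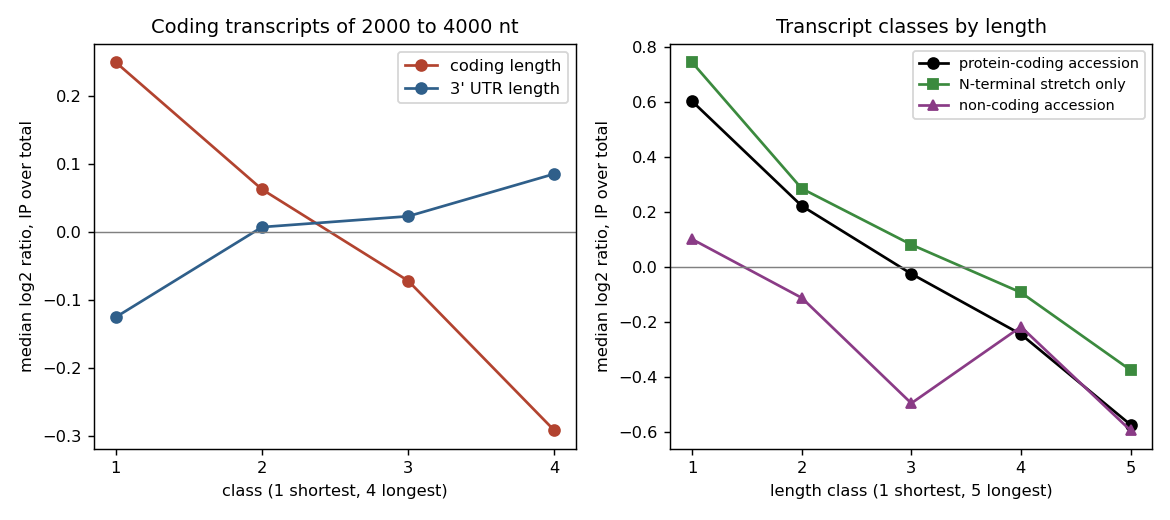
Median log2 ratio of IP over total RNA. Left, coding transcripts of 2000 to 4000 nt in 4 classes of coding length and of 3' UTR length (1250 genes each). Right, kinds of transcript in 5 length classes. Values fall with coding length from 0.25 to -0.29, rise slightly with 3' UTR length, and the medians of genes with an N-terminal hydrophobic stretch lie above those of all protein-coding genes in each class.

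Genes that went against the length trend differed from their neighbours in make-up. Of the 82 genes of the shortest class that were lower in IP, 58 (70.7%) had a non-coding accession, against 16.3% of the whole class. At least 50% of the exonic bases were shared with another gene in 30 of the 82 (36.6%), against 10.1% of the whole class. The microRNA genes Mir5114 (-1.83) and Mir3064 (-1.54) lie wholly within exons of Scd2 and Ddx5 on the same strand, and Msmp (-1.41) wholly within Rgp1 on the opposite strand, so their reads cannot be assigned. Taar1, a trace amine receptor, had no such overlap and a ratio of -1.05. The 68 genes of the longest class that were higher in IP had a median coding length of 1455 nt and a median 3' UTR of 5759 nt, against 3654 and 3854.5 nt in the whole class. Ebpl (1.20) and Mrpl17 (0.88) are of this kind, with coding lengths of 621 and 531 nt. Zfp638, a zinc finger protein with a 5781 nt coding sequence, was an exception at 129, 125 and 147 CPM in IP and 51.8, 54.6 and 55.1 CPM in total RNA, a ratio of 1.31 ± 0.10 (adjusted p = 3.2e-08). Stab1, a scavenger receptor with 7716 coding nt, was at 0.95.

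At the extremes, genes were ranked among those past the test. They needed at least 5 CPM in the higher group, no copy and no overlap of libraries, so separate libraries are a condition here. Genes without a length or with Rik, Gm, LOC or clone names were left out, and the lowest ratio over all genes was -5.47. The highest ratios in this ranking were those of Tmem160, a small mitochondrial membrane protein, and S100a6, a calcium-binding protein. Tmem160 stood at 96.5, 89.03 and 111 CPM in IP and 34.96, 30.3 and 30.4 CPM in total RNA, a ratio of 1.63 ± 0.12 (adjusted p = 4.3e-08), and S100a6 at 13.4, 10.6 and 16.7 CPM in IP and 4.67, 3.54 and 5.01 CPM in total RNA, a ratio of 1.62. Fam162a and Tmem147, both with transcripts of 718 and 870 nt, were at 1.34 and 1.35. Dis3l, a subunit of the cytoplasmic exosome, had a ratio of 1.35 with a 3575 nt transcript. The lowest by the same conditions was Zbed6 at -3.56, whose exons lie wholly within those of Zc3h11a, so that its reads cannot be told from that gene's. Next came Muc4, a mucin, at 1.59, 1.01 and 1.35 CPM in IP and 11.7, 16.7 and 12.7 CPM in total RNA, a ratio of -3.37 ± 0.23 (adjusted p = 1.5e-08). Trip11, a Golgi tether, was at -2.81, and Mdm4, an inhibitor of p53 with a 3490 nt transcript, at 3.42, 3.75 and 3.20 CPM in IP and 21.2, 22.8 and 21.7 CPM in total RNA, a ratio of -2.66. Zim1, an imprinted zinc finger gene, was at -2.63, the potassium channel gene Kcnk9 at -2.58 and the microRNA host RNA Mir124a-1hg at -2.78. Cpeb4, a regulator of poly(A) tails, was at -2.56. Its 2312 nt transcript model has 2190 coding nt and only 77 and 45 nt of 5' and 3' UTR, so its length rests on that model.

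**Figure D5:**
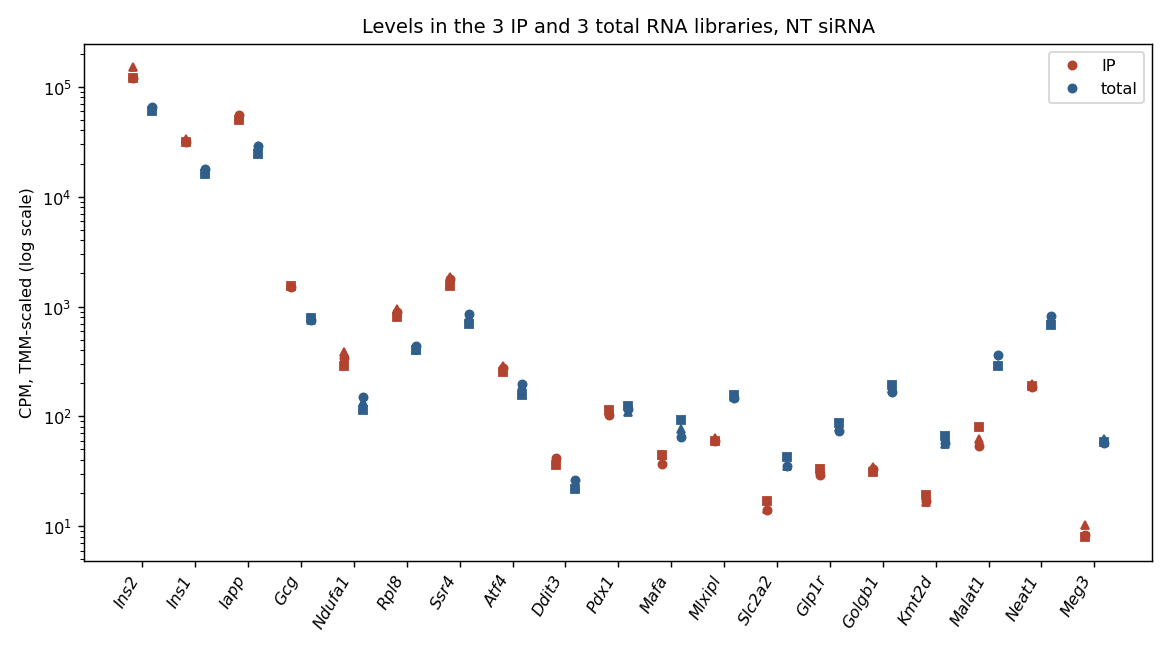
CPM on TMM-scaled library sizes (y axis, log scale) of 19 genes in the 3 IP (red) and 3 total RNA (blue) libraries of NT siRNA, with replicates as circles, squares and triangles. Groups overlap for Pdx1 and are apart for the others shown, IP above total from Ins2 to Ddit3 and below it from Mafa to Meg3.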

How the data were processed

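RNA of MIN6 cells was sequenced in 12 libraries (4 groups of 3). Each deposited table holds 1 library's raw counts, whole numbers per RefSeq transcript that the authors did not normalize. The submitters' processing notes name TopHat2, featureCounts and mm10, without versions. Neither strand use nor the treatment of reads with several matches is stated, so overlapping and antisense genes cannot be told apart.

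Of 17133 transcripts, 16834 matched a symbol in RefSeq's GRCm38.p6 annotation. The other 299 held 0.584% to 0.841% of a library's counts and were left out. The transcript with the highest total was kept for each of 12639 genes, 2634 of which had several. Lengths, coding sequences and exon overlaps came from GENCODE M21 through RefSeq accessions for 12520 genes. Where several GENCODE transcripts matched an accession, the longest was taken. The length used exceeds the RefSeq gene for Ins1 and H1f2, for example. Copies were found with minimap2 as alignments of at least 100 bases and 95% identity covering at least 50% of a transcript. A hydrophobic N-terminal stretch was an 11-residue window with a mean Kyte-Doolittle hydropathy of at least 2.0 within the first 35 residues, and another segment was a 19-residue window of at least 1.6.

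The test was edgeR 4.0.16 (R 4.3.3), quasi-likelihood, with TMM normalization, a mean per group over all 12 libraries, the contrast of NT IP against NT total and Benjamini-Hochberg adjustment over all genes. The default filter removed 0 genes. CPM are edgeR values on TMM-scaled library sizes. The length offset is a lowess trend (span 0.3) of log2 CPM on log2 length in each library. Alternatives included DESeq2 1.42.0, RLE and upper-quartile scaling, other filters, other transcripts per gene and leaving out libraries. The fit was also run on simulated counts with 200 genes changed and no trend along length. Most genes differ in the real data, so the simulation cannot show how the fit behaves there.

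Members and gene lists were chosen with earlier results of these data known. The 109 named genes are a fixed set, the 10 highest and 10 lowest ratios past the test (at least 5 CPM, no overlap of libraries, no copy), up to 3 members per list with the smallest p in the direction of the list's median, and the 4 highest and 4 lowest of the outer length classes. Not all of these are reported here. The ranked ones also needed a known length and a symbol other than Rik, Gm, LOC or clone names. Other genes are named where the text says so or as the exceptions to a list, after their values were seen. Counts of reads after PCR carry at least counting error, which depth makes small here for all but the scarcest genes.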

Additional observations from a re-analysis of the deposited data

How the results depend on the processing

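The ratio was recomputed under 19 alternatives. Genes past the test numbered 8809 with TMM, 8848 with RLE scaling, 8786 with upper-quartile scaling, 8748 with DESeq2 and 9308 with only the NT libraries in the fit. Leaving out each replicate in turn gave 8068 to 8410 genes past the test, 993 to 1370 of them at least 2-fold, and a difference between the outer length classes of -1.47 to -1.31. No scaling moved the median over all genes by more than 0.1, but its sign and the balance of calls depended on the scaling. With RLE scaling the median was 0.02, and 4569 genes were higher and 4279 lower, against 4272 and 4537 with TMM. With DESeq2 4536 were higher and 4212 lower. The shares of 33.8% and 35.9% over all genes are those of the TMM fit.

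Treating length changed most. The count of genes at least 2-fold apart fell from 1188 to 604 with the length offset and 614 with the replicate block and the length offset. The difference between the longest and the shortest class became -0.072 and -0.016 in these fits, as the offset is built to remove it. Directions reversed with the length offset, alone and with the block, for Rpl10a (-0.35 and -0.40), Pcsk2 (0.050 and 0.053), Actb (-0.023 and -0.052), Hnrnpu (0.11 and 0.11), Snhg6 (-0.20 and -0.27), Snhg12 (-0.28 and -0.33) and Snhg8 (-0.33 and -0.38). Eef1a1, 77.5% of which is matched by copies, became -0.048 with only NT IP replicate 3 and -0.031 with the block and the offset. Ins2 and Iapp, not past the test with the offset alone, passed with the block and the offset at 0.24 each (edgeR adjusted p = 0.024 and 0.0044). Of 2063 values for the 109 named genes, 2010 kept their direction and side of the threshold, 32 lost the call, 5 gained one and 16 reversed.

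Same-numbered IP and total libraries deviated together at r = 0.044 to 0.26, and other pairs at -0.22 to 0.098. Of 6 libraries 5 correlated best with their own number. By the rule used (every same-number r over 0.1) the numbers were not taken as pairs, which does not show that the samples are unpaired. In the NT libraries 9550 genes passed with the replicate number as a block and 9308 without it.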
